A study of Mus musculus with 4 samples.

Results

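The genes described here are 40 muscle genes measured in embryonic mouse kidney after loss of Sall1. They are listed by name as the regulators and working parts of skeletal muscle, with a small group of smooth muscle genes beside them, and every probe on the array whose RefSeq accession belongs to one of them was taken. The 40 genes are among 20018 named genes on the array, and their 52 probes are among 55681 probes that are not controls. Of the 40, 36 belong to striated muscle: 5 myogenic transcription factors, 10 thick filament genes, 13 thin filament and Z-disc genes, and 8 genes of the muscle membrane, calcium handling and energy supply. The other 4, Myl9, Tagln, Myh11 and Cnn1, belong to smooth muscle.

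The study hybridised total RNA of kidneys dissected at E13.5, about a day after tamoxifen at E12.5, to 1-colour Agilent arrays. Of the arrays, 2 carried RNA of Sall1 knockout kidneys, whose titles carry the word CreER, a Cre recombinase that tamoxifen switches on. The other 2 carried RNA of control kidneys, whose titles carry the word flox and not CreER. Both groups had tamoxifen and a mixed 129 and C57BL/6 background, and Sall1 is a zinc finger regulator of nephron progenitors. The treatment text, the same for every sample, speaks of Sall1CreER kidneys, so the labels do not settle whether the control kidneys also carried CreER. If they did not, an effect of CreER and the loss of Sall1 cannot be told apart. The cells that express CreER are not given in the sources used here. Whether a sample came from 1 embryo or several is not given in the labels, so p-values measure only the spread between these samples, and 2 arrays a group limit the precision.

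Striated muscle is built from sarcomeres, in which myosin thick filaments pull on actin thin filaments anchored at the Z-disc. The troponin and tropomyosin proteins on the thin filament make contraction depend on calcium, which the sarcoplasmic reticulum releases after the acetylcholine receptor has excited the membrane. The basic helix-loop-helix factors MyoD, myogenin, Myf5 and MRF4 bind E-box sequences and, together with MEF2 proteins, switch on these genes when myoblasts fuse. Smooth muscle, which in the kidney surrounds vessels and the ureter, uses other myosins and regulators and depends on serum response factor, which binds CArG boxes. The cell types of the kidney itself are not known to form sarcomeres.

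The start regions of 5 members are shown because they hold the sequences that the myogenic factors are known to bind, in 3 members with a positive difference of knockout over control (Chrna1, Chrng and Acta1) and in the 2 sarcomere members with a negative one (Des and Tpm2). Each stretch is from RefSeq on build GRCm38.p6, on the strand of the gene, and lies upstream of the annotated start. Capitals mark the E-box CAGCTG, which reads the same on both strands, and in Acta1 also a CArG box. Other forms of the E-box were not searched for and are not marked.
Chrna1, chr2:73580339-73580458, minus strand: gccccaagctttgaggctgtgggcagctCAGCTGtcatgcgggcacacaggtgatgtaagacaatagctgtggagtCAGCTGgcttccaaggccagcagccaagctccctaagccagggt
Chrng, chr1:87205631-87205730, plus strand: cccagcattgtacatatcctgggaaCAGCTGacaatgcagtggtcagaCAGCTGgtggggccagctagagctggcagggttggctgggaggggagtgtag
Acta1, chr8:123894816-123895005, minus strand: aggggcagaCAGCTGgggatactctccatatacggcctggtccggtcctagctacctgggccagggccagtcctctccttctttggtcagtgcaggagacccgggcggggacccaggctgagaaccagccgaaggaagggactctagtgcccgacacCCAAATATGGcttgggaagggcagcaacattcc
Des, chr1:75360172-75360291, plus strand: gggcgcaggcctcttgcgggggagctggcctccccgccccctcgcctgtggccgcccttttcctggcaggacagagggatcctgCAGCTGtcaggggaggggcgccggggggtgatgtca
Tpm2, chr4:43523705-43523804, minus strand: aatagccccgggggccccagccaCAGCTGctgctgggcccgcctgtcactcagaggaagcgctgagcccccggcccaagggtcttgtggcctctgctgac
Promoters of 300 bases, 250 before to 50 after the start, were found for 32 of the 40 members. The motif CAGCTG was present in 14 of these 32 genes (43.8%), against 4944 of all 27025 genes with a promoter (18.3%). On either strand, the MEF2 motif was present in 3 members (9.38%), against 3.70% of all genes, and the CArG box in 4 members, against 1.81% of all genes. No 2 of these matches overlapped in a member promoter. All 5 sequences above were chosen because they hold an E-box, so they cannot show whether a motif goes with the direction of a gene. A match is a description of the letters only.

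Signals are given on a linear scale after each array was brought to a common 75th percentile, so that they compare 1 probe between arrays and not 1 gene with another. Between 60.6% and 64.2% of spots were well above background on each array, no spot was saturated, and all 4 arrays lay on 1 slide scanned together. Pearson's r was taken over the 25081 tested features, 1 probe for each gene or unnamed sequence, which are no replicates. It came to 0.9964 for the pair of knockout arrays, 0.9952 for the control pair, and 0.9932 to 0.9945 across the groups. Sall1 itself gave 1126 and 1154 in the knockout arrays and 1907 and 1925 in the control arrays. The groups did not overlap, and the log2 difference was -0.75 ± 0.056 (SE of the limma fit, 1.68-fold lower, adjusted p = 0.126, or 0.00143 with limma's trended and robust variance prior). The labels do not say whether this probe lies in the deleted stretch of Sall1. All 9 embryonic kidney genes looked at were above background on all 4 arrays. The limma fit covered 25081 features, and at an adjusted p under 0.05 it called 0 higher and 0 lower in the knockout (0%). At an unadjusted p under 0.05, 6.77% of features were higher and 5.93% lower.

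RNA of muscle genes was detected in all 4 kidney samples. Of the 40 members, 33 were well above background on all 4 arrays. Of all 20018 named genes on the array, 14580 were, so the count by itself does not set the muscle genes apart. The filter, which asked that both arrays of 1 group or the other clear background, was passed by 37 members. Myf5, Ckm and Myh11 were above background on 0 arrays and were not tested. Mylpf, Chrng and Casq2 passed only through the knockout arrays, having cleared background on 1 of the 2 control arrays, and Myf6 passed only through the control arrays. In bulk RNA, fewer cells of a type and less RNA per cell cannot be told apart.

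The striated members stood higher in the knockout arrays, but the control arrays differed from each other about as much as the groups did. Over the 34 striated members tested, the median log2 difference of knockout over control was 1.11, against -0.013 over all features. The median of control replicate 2 over control replicate 1 was -1.04 and that of knockout replicate 2 over knockout replicate 1 was -0.52, against 0.014 over all features for each of these pairs. No member passed the limma test: the smallest adjusted p among the 37 was 0.205. At an unadjusted p under 0.05, 6 of the 34 were higher and 2 lower in the knockout.

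The sum of the scaled signals of the 34, which is weighted to the brightest genes, was 72789.9 and 51417 in the knockout arrays, against 45919.9 and 23920.5 in the control arrays. Without Des and Tpm2, which ran the other way, it was 67529.6 and 46264.3 in the knockout arrays, against 38880.8 and 17005.3 in the control arrays. Control replicate 2 was the low array in both sums, and control replicate 1 lay under knockout replicate 2. Control replicate 2 was the lowest of the 4 arrays for 30 of the 34 members, against 22.4% of all features. These include Mylpf, Chrng and Casq2, which were kept only through the knockout arrays and were not above background in control replicate 2. Of the 30 striated members above background on all 4 arrays, control replicate 2 was the lowest for 27. Knockout replicate 1 was the highest for 31 of the 34, against 22% of all features. In 20 members the order was knockout replicate 1, knockout replicate 2, control replicate 1, control replicate 2 (6.2% of all features), and in 10 the middle 2 arrays were exchanged (3.62% of all features). Chrna1, Casq2 and Neb are among the 10, so that for them a control array stood above a knockout array.

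**Figure D1:**
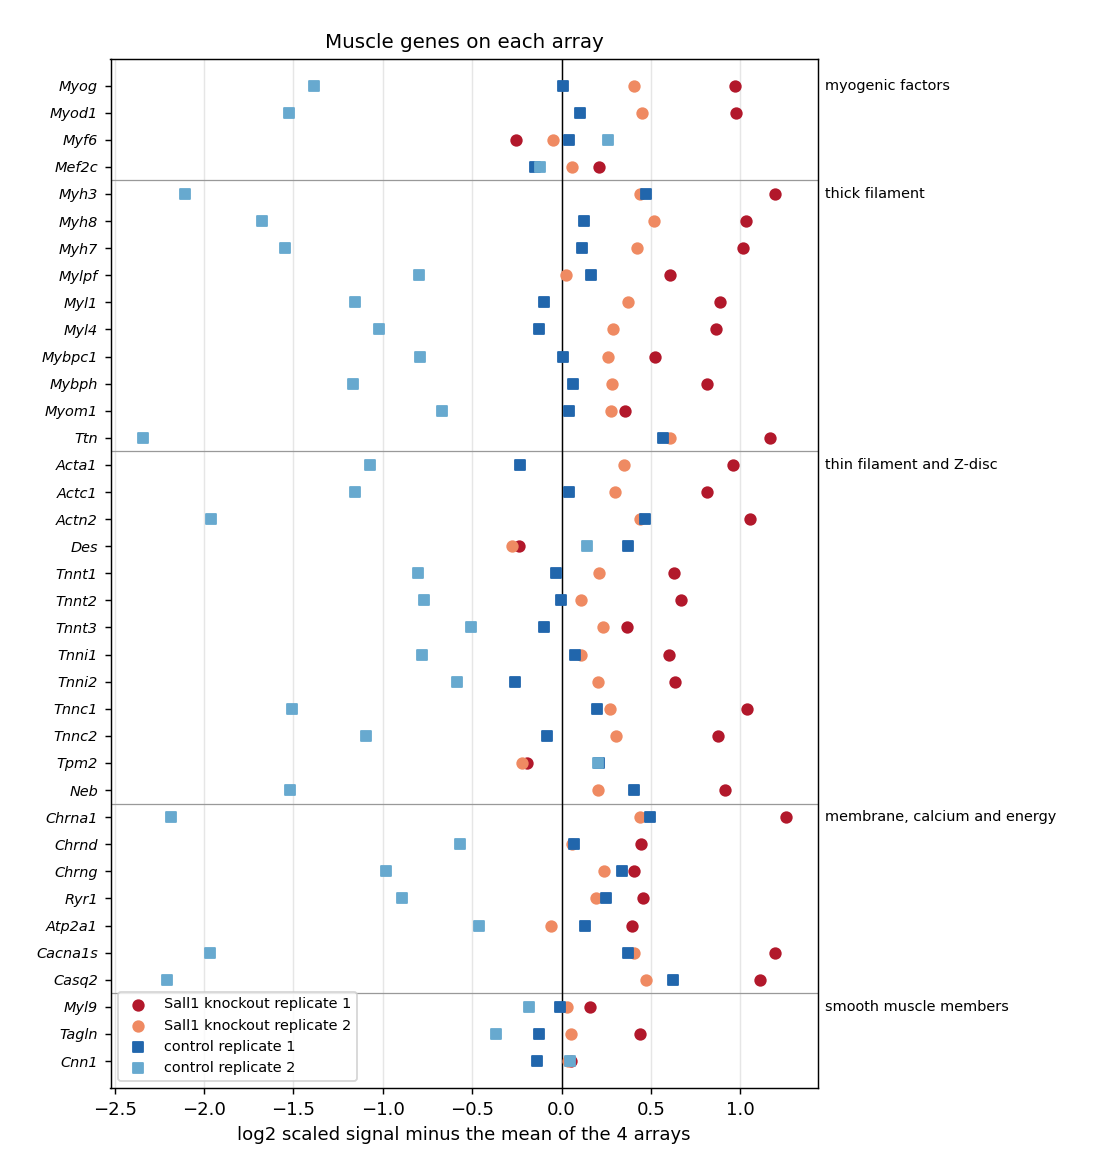
Scaled signal of each of the 37 tested members on each array, as the log2 difference from the gene's own mean over the 4 arrays (horizontal axis), with Sall1 knockout arrays as circles, control arrays as squares, and genes grouped by role down the page. Most striated members are lowest in control replicate 2 and highest in knockout replicate 1, while Des and Tpm2 are lower in both knockout arrays.

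Of the 34 striated members, 21 were higher and 3 lower in the knockout with no overlap between the groups. Of all features, 21.5% were higher and 27.7% lower without overlap. At 1.5-fold or more between the group means, 20 striated members were higher (2.48% of all features) and 0 were lower (1.05%). The same 20 were counted among the 30 striated members above background on all 4 arrays, whose median was also 1.11. The difference between the groups was larger than both differences within a group for 12 of the 34, against 35.8% of all features, so by this measure the members stood at the background. The control pair was farther apart than the knockout pair for 31 of the 34, against 51.5% of all features.

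Set against each control array alone, the knockout mean was 1.29-fold control replicate 1 in the median striated member, with quartiles of 1.13 and 1.5, and 3.12-fold control replicate 2, with quartiles of 2.04 and 4.66. Control replicate 1 over control replicate 2 was 2.05-fold in the median member, with quartiles of 1.65 and 3.24. Knockout replicate 1 over knockout replicate 2 was 1.43-fold, with quartiles of 1.23 and 1.51. Over all features that last fold had quartiles of 0.935 and 1.06. Without control replicate 2 the median log2 difference of the striated members was 0.37, and without control replicate 1 it was 1.64. With 1 array left in a group, groups without overlap are easier to reach, so counts without overlap are not given for these settings.

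**Figure D2:**
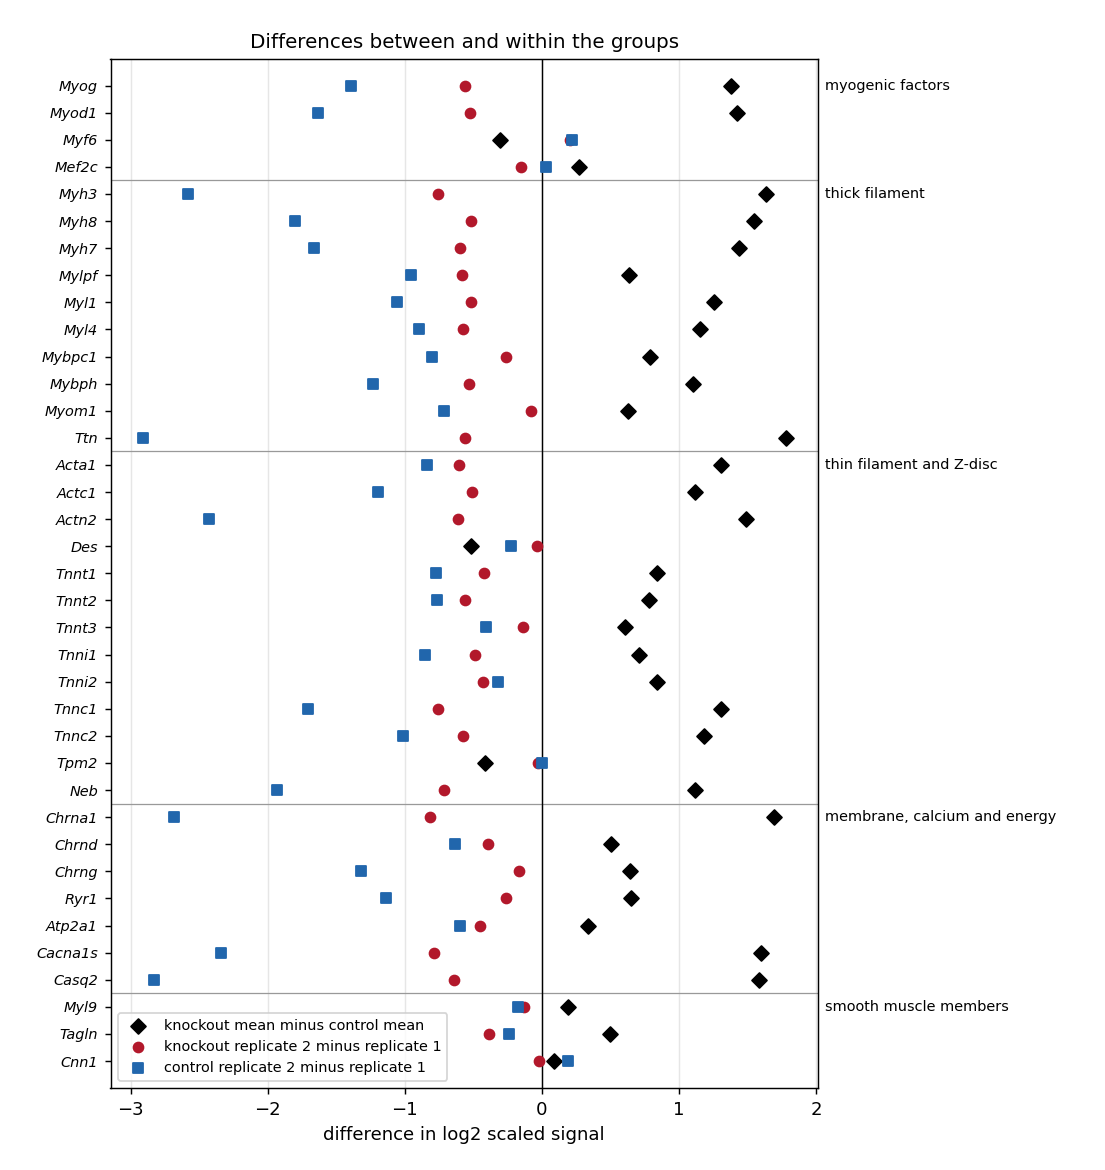
Log2 difference of knockout mean over control mean for each tested member (diamonds), beside the difference of replicate 2 over replicate 1 in the knockout (circles) and control (squares) pairs, all on 1 log2 axis. In size, the diamond exceeds both other marks for 12 of the 34 striated members, Tpm2 and Des among them.

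Among the myogenic factors, Myog and Myod1 stood higher in the knockout arrays, Mef2c stood slightly higher, and Myf6 was near background throughout. Myog, myogenin, which drives the terminal differentiation of myoblasts, gave 1052 and 711 in the knockout arrays and 540.3 and 206 in the control arrays. Both knockout arrays exceeded both control arrays, and the control arrays were 2.62-fold apart. The log2 difference was 1.37 ± 0.55 (limma SE, adjusted p = 0.426).

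Myod1, the factor that commits cells to the muscle lineage, gave 128 and 89.3 in the knockout arrays and 70.2 and 22.7 in the control arrays. The groups did not overlap, control replicate 2 lay lowest, and the log2 difference was 1.42 ± 0.62 (limma SE, adjusted p = 0.447). Mef2c, a MEF2 factor that also acts in heart, bone and vessels, gave 153 and 138 in the knockout arrays and 119.7 and 122 in the control arrays. Here the control arrays were within 0.028 of each other on the log2 scale, the groups did not overlap, and the log2 difference of 0.27 ± 0.077 had an adjusted p of 0.354 by limma. Myf6, which encodes MRF4, a factor of late differentiation, gave 18.7 and 21.6 in the knockout arrays, not well above background on either, and 22.9 and 26.7 in the control arrays. Its log2 difference was -0.30 ± 0.12 (limma SE, adjusted p = 0.431), and it was 0.091 with normexp background correction. At signals this near background, with Myf6 kept only through the control arrays, the direction is uncertain. Myf5, an early factor of myoblasts, never exceeded 4.98.

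All 10 thick filament members had a positive difference, against 46.4% of all features. For all 10 control replicate 2 was the lowest and knockout replicate 1 the highest array (22.4% and 22% of all features). Mylpf, 1 of the 10, was kept only through the knockout arrays. The median log2 difference of the 10 was 1.20. Of the 10, 8 were higher without overlap and at least 1.5-fold (2.48% of all features), and these are part of the 20 counted above. The adjusted p of the 10 ran from 0.385 to 0.550 by limma.

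Myh3, the embryonic myosin heavy chain, gave 8367 and 4944 in the knockout arrays and 5075 and 849 in the control arrays. Control replicate 1 lay above knockout replicate 2, so the groups overlapped, and control replicate 2 lay 5.98-fold under control replicate 1. The log2 difference was 1.63 ± 0.98 (limma SE, adjusted p = 0.527). Ttn, titin, the giant spring protein that spans the sarcomere from Z-disc to M-line, gave 1041 and 707 in the knockout arrays and 687 and 91.3 in the control arrays. Knockout replicate 2 and control replicate 1 were nearly equal, and the control arrays were 7.53-fold apart, the widest gap of any member by its brightest probe. Its log2 difference of 1.78 ± 1.08 had an adjusted p of 0.53 by limma.

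Myh8, the perinatal myosin heavy chain, gave 1628 and 1139 in the knockout arrays and 869 and 249 in the control arrays. Myh7, the slow and cardiac myosin heavy chain, gave 2035 and 1348 in the knockout arrays and 1087 and 343 in the control arrays. In both genes the groups did not overlap, and control replicate 2 stood apart below the other 3 arrays. The log2 differences were 1.55 for Myh8 and 1.44 for Myh7.

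Of the myosin light chains, Myl1 and Myl4 kept the order of most members and Mylpf did not. Myl1, the essential light chain of fast muscle, gave 5097 and 3564 in the knockout arrays and 2579 and 1237 in the control arrays. Myl4, the light chain of embryonic muscle and the atria, gave 7096 and 4751 in the knockout arrays and 3564 and 1918 in the control arrays. Neither overlapped between the groups, and the log2 differences were 1.25 ± 0.43 for Myl1 and 1.15 ± 0.39 for Myl4 (limma SE, adjusted p = 0.389 and 0.385). Mylpf, the regulatory light chain of fast muscle, was dim, at 44.4 and 29.6 in the knockout arrays and 32.6 and 16.8 in the control arrays, and its groups overlapped.

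The accessory proteins of the thick filament also lay lowest in control replicate 2. Mybpc1, myosin binding protein C of slow muscle, gave 668 and 557 in the knockout arrays and 467 and 268 in the control arrays. Mybph, myosin binding protein H, gave 491 and 339.6 in the knockout arrays and 292 and 124 in the control arrays. Myom1, myomesin, which links thick filaments at the M-line, gave 119 and 112 in the knockout arrays and 95.8 and 58.5 in the control arrays. None of these 3 overlapped between the groups, and the log2 differences were 0.79 for Mybpc1, 1.10 for Mybph and 0.63 for Myom1.

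The 13 thin filament and Z-disc members were divided. Of these, 11 stood higher in the knockout arrays, while Des and Tpm2 stood lower in both knockout arrays. Of the 11, 9 were higher without overlap and at least 1.5-fold (2.48% of all features), and these too are part of the 20 counted above. The median log2 difference was 0.84.

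Acta1, skeletal alpha-actin, whose upstream sequence is printed above, gave 1934 and 1271 in the knockout arrays and 847 and 474 in the control arrays. The groups did not overlap, and the log2 difference of 1.31 ± 0.38 (limma SE, adjusted p = 0.355) exceeded both the gap of -0.84 between the control arrays and that between the knockout arrays in size. Actc1, cardiac alpha-actin, which is also the main actin of early skeletal muscle, gave 16843 and 11813 in the knockout arrays and 9855 and 4311 in the control arrays. The groups did not overlap, but the control arrays were 2.29-fold apart, and the log2 difference was 1.11 ± 0.47 (limma SE, adjusted p = 0.441).

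The troponins gave 7 members, all with control replicate 2 lowest and knockout replicate 1 highest. Tnni2, the inhibitory subunit of fast muscle, gave 1310.1 and 972 in the knockout arrays and 705 and 563 in the control arrays. Tnnt3, the tropomyosin-binding subunit of fast muscle, gave 377 and 343 in the knockout arrays and 273 and 206 in the control arrays. In both, the groups did not overlap and lay farther apart than the arrays within either group, with log2 differences of 0.84 ± 0.20 for Tnni2 and 0.60 ± 0.16 for Tnnt3 (limma SE, adjusted p = 0.319 and 0.344).

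Tnnc2, the calcium-binding subunit of fast muscle, gave 4482 and 3009 in the knockout arrays and 2303 and 1143 in the control arrays. Tnnc1, its slow and cardiac counterpart, gave 643 and 379 in the knockout arrays and 360.1 and 110.4 in the control arrays. Tnnt1, of slow muscle, gave 8689.9 and 6482 in the knockout arrays and 5480.3 and 3209 in the control arrays. These 3 did not overlap between the groups, and the log2 differences were 1.18 for Tnnc2, 1.31 for Tnnc1 and 0.84 for Tnnt1. Tnnt2, the cardiac form that embryonic skeletal muscle also makes, gave 946 and 641 in the knockout arrays and 592 and 348 in the control arrays. Tnni1, the inhibitory subunit of slow muscle, gave 1249.5 and 889 in the knockout arrays and 869 and 481 in the control arrays. For Tnni1, knockout replicate 2 and control replicate 1 were nearly equal.

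Actn2, alpha-actinin of the Z-disc, gave 679 and 444 in the knockout arrays and 453 and 84.2 in the control arrays. Neb, nebulin, which runs along the thin filament, gave 299 and 183 in the knockout arrays and 211 and 55.4 in the control arrays. In both, control replicate 1 exceeded knockout replicate 2, and control replicate 2 was the outlying low array, 5.38-fold under control replicate 1 for Actn2 and 3.81-fold for Neb. The log2 differences were 1.49 ± 0.91 for Actn2 and 1.11 ± 0.75 for Neb (limma SE, adjusted p = 0.532 and 0.561).

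Tpm2 and Des ran the other way. Tpm2, beta-tropomyosin, which smooth muscle and other cells also make, gave 4763 and 4669 in the knockout arrays and 6282 and 6267 in the control arrays. The control arrays differed by -0.0033 on the log2 scale, the groups did not overlap, and the log2 difference was -0.41 ± 0.055 (limma SE, adjusted p = 0.205). Des, desmin, the intermediate filament of muscle, which smooth muscle and mesenchymal cells of the kidney also make, gave 497 and 483 in the knockout arrays and 757 and 648 in the control arrays. The groups did not overlap, the control arrays were 1.17-fold apart, and the log2 difference was -0.52 ± 0.099 (limma SE, adjusted p = 0.272). With the trended and robust prior, which called 137 features higher (0.546%) and 164 lower (0.654%), these 2 were the members called, with an adjusted p of 0.0111 for Tpm2 and 0.046 for Des. Without Des and Tpm2 the median of the other 32 striated members was 1.11.

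Among the 7 tested genes of the membrane and calcium handling, 6 had a control array above a knockout array, and for all 7 control replicate 2 was the lowest. Chrng and Casq2, among these 7, were kept only through the knockout arrays. Over the 7, the median log2 difference was 0.65, and the adjusted p ran from 0.499 to 0.628 by limma. Chrna1, the alpha subunit of the muscle acetylcholine receptor, with 2 CAGCTG matches in the sequence above, gave 447 and 254 in the knockout arrays and 264 and 41.2 in the control arrays. Control replicate 1 lay just above knockout replicate 2, and the control arrays were 6.41-fold apart. The log2 difference was 1.69 ± 1.02 (limma SE, adjusted p = 0.528).

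Chrnd, the delta subunit, gave 280.3 and 214 in the knockout arrays and 216 and 139 in the control arrays. Chrng, the gamma subunit of the fetal receptor, also with 2 CAGCTG matches shown, gave 48.4 and 43.0 in the knockout arrays and 46.2 and 18.5 in the control arrays. In both, knockout replicate 2 and control replicate 1 were close, and for Chrng the difference was -0.020 without control replicate 2 and 1.30 without control replicate 1.

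Cacna1s, the voltage sensor that couples excitation to calcium release, gave 818 and 474 in the knockout arrays and 463 and 91.5 in the control arrays. It was the 1 gene of this set whose groups did not overlap, by a narrow margin, with a log2 difference of 1.60 ± 0.90 (limma SE, adjusted p = 0.507). Casq2, calsequestrin, which stores calcium in the reticulum, gave 154 and 98.8 in the knockout arrays and 109.6 and 15.4 in the control arrays. Its control replicate 2 was not well above background and lay 7.11-fold under control replicate 1. Ryr1, the release channel, gave 198 and 165 in the knockout arrays and 171 and 77.8 in the control arrays. Atp2a1, the pump that returns calcium to the reticulum in fast fibres, gave 192 and 141 in the knockout arrays and 160.3 and 106 in the control arrays. Both overlapped between the groups, and the log2 differences of 0.65 for Ryr1 and 0.33 for Atp2a1 did not pass the limma test (adjusted p = 0.557 and 0.628). Ckm, the creatine kinase of mature muscle, did not exceed 10.99 on any array.

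The 3 tested smooth muscle members each gave a smaller difference between the groups than the median striated member. Their median log2 difference was 0.19, and 0 of them were 1.5-fold apart without overlap. Tagln, transgelin, an actin-binding protein of smooth muscle, gave 2288 and 1755 in the knockout arrays and 1547 and 1309.9 in the control arrays. Its groups did not overlap, and the log2 difference was 0.49 ± 0.17 (limma SE, adjusted p = 0.392). Myl9, the regulatory light chain of smooth muscle myosin, gave 11184 and 10237 in the knockout arrays and 9947 and 8807 in the control arrays, without overlap and with a log2 difference of 0.19 ± 0.096 (limma SE, adjusted p = 0.475). Cnn1, calponin, gave 60.6 and 59.9 in the knockout arrays and 53.1 and 60.4 in the control arrays, which overlapped. The control arrays were a median of -0.18 apart on the log2 scale over these 3, against -1.04 over the striated members. Myh11, the smooth muscle myosin heavy chain, did not exceed 10.35 on any array.

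Several probes were present for 10 members, and within each of these genes all probes gave the same direction between the groups, though some probes were near background. The 2 probes of Tpm2 were lower in the knockout by the same amount (-0.41 each), and those of Myh3 gave 1.63 and 1.65 on the log2 scale. The brightest probe of Ttn gave 1.78, and of its other 3 probes, which were all lower in the control arrays, 0 were well above background in control replicate 2. The second probes of Chrna1, Neb and Cacna1s likewise did not clear background on all 4 arrays, and that of Myh8 cleared it on 1 array, so their differences are not given. Related genes such as the myosin heavy chains are similar in sequence, and whether a probe also binds a relative was not tested.

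Other muscle genes and markers of other tissues were read from the same fit. Of 52 further skeletal muscle genes, 41 were tested, and their median log2 difference was 0.52. By limma 0 of the 41 passed at an adjusted p under 0.05 in either direction, and at an unadjusted p under 0.05, 11 were higher and 4 lower in the knockout. Most of them showed the order of the members: control replicate 2 was lowest in 28 of 41, against 22.4% of all features. Knockout replicate 1 was highest in 31 of 41, against 22% of all features. The median of control replicate 2 over control replicate 1 was -0.48. Of the 41, 18 were higher without overlap and at least 1.5-fold (2.48% of all features). Only 32 of the 41 were above background on all 4 arrays. A further 6 passed the filter only through the knockout arrays, some of them among the 28, the 18 and the 11, and 3 only through the control arrays. Cox8b, a muscle form of a respiratory chain subunit, gave 94.7 and 86.7 in the knockout arrays and 52.0 and 37.2 in the control arrays. Eno3, the muscle enolase, gave 3609 and 3676 in the knockout arrays and 5250.0 and 5026 in the control arrays. Actn3, the alpha-actinin of fast fibres, gave 643 and 594 in the knockout arrays and 869 and 803 in the control arrays. Like Des and Tpm2, Eno3 and Actn3 were lower in both knockout arrays. Under the trended prior they were the 2 genes of this list called, with an adjusted p of 0.00734 for Eno3 and 0.046 for Actn3 by limma, against 0.191 and 0.263 under the default prior.

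Of 14 further smooth muscle genes, 11 were tested, with a median log2 difference of 0.33 and 0 past the limma test in either direction. At an unadjusted p under 0.05 by limma, 6 of the 11 were higher and 0 lower, against 6.77% and 5.93% of all features. Without overlap and at least 1.5-fold, 2 were higher (2.48% of all features). The difference between the groups was larger than both differences within a group for 7 of the 11, against 35.8% of all features. Control replicate 2 was the lowest array for 9 of the 11, against 22.4% of all features. Myocd, myocardin, the partner of serum response factor in smooth muscle, gave 123 and 115 in the knockout arrays and 73.7 and 69.4 in the control arrays. Its groups did not overlap, the log2 difference was 0.73 ± 0.071, and limma gave an adjusted p of 0.173, or 0.0483 under the trended prior. Actg2, the actin of visceral smooth muscle, gave 109 and 114 in the knockout arrays and 80.2 and 75.9 in the control arrays, also without overlap.

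The heart muscle list had 9 of 14 genes tested and a median of 0.040. Of the 14, 7 were above background on all 4 arrays (Myh6, Myl2, Myl3, Tnni3, Nppa, Nppb and Sln), Tbx5 on 2 arrays and Myl7 on 1, while Nkx2-5, Tbx20 and Ryr2 were above it on 0. The median of control replicate 2 over control replicate 1 was 0.28, and control replicate 2 was the lowest array for 2 of the 9 tested and control replicate 1 for 4. Mybpc3, cardiac myosin binding protein C, passed the filter only through the control arrays. It gave 7.28 and 6.91 in the knockout arrays, not above background, and 85.8 and 21.4 in the control arrays, which were 4.01-fold apart. The knockout mean was at least 2.46-fold lower (adjusted p = 0.348 by limma). That bound rests mainly on control replicate 1, since control replicate 2 lay near the lowest signals that cleared background on the knockout arrays (15.4 and 19.7). Sln, sarcolipin, which embryonic skeletal muscle also makes, gave 1135 and 845 in the knockout arrays and 646 and 326 in the control arrays. It was the 1 heart gene of the 9 with the order most frequent among the striated members.

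Markers of other tissues did not share 1 order of the arrays. The 9 tendon and cartilage genes tested had a median of 0.045. Col2a1 gave 4719 and 4994.5 in the knockout arrays and 3564.5 and 3653 in the control arrays, without overlap (adjusted p = 0.222 by limma, or 0.0139 under the trended prior). Col11a2 gave 115 and 88.4 in the knockout arrays and 73.9 and 80.2 in the control arrays. Both were lowest in control replicate 1. Thbs4 gave 608 and 375 in the knockout arrays and 339.9 and 141 in the control arrays. Thbs4 was the 1 gene of these 9 that was lowest in control replicate 2, and 3 were lowest in control replicate 1. The 13 liver and gut genes, 12 of them above background on all 4 arrays, had a median of 1.80 and were lowest in control replicate 1 in 13 of 13. All 13 were higher in the knockout without overlap (21.5% of all features), 12 of them at least 1.5-fold (2.48%). The difference between the groups was larger than both differences within a group for 11 of the 13, against 35.8% of all features. By limma 0 of the 13 passed at an adjusted p under 0.05, and under the trended prior 2 were called higher. Their summed signal was 24104 and 21713 in the knockout arrays, against 7818 and 11619 in the control arrays. The 8 erythroid genes tested had a median of 0.21 between the groups and of 1.71 between control replicate 2 and control replicate 1, with control replicate 2 the higher. Adrenal cortex genes had a median of -0.044 over 6 tested, neuron genes of -0.14 over 9, and embryonic kidney genes of -0.19 over 9. The part of carried-over tissue, or of any of these other cells, in the differences of the muscle members was not tested.

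**Figure D3:**
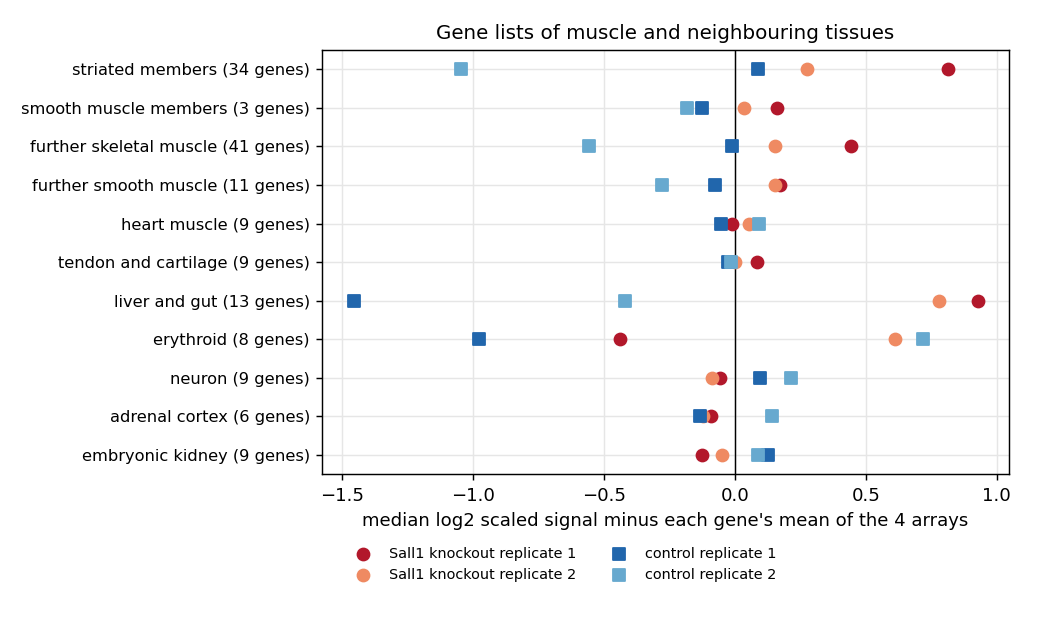
For each gene list (rows), the median over its tested genes of the log2 scaled signal on an array minus the gene's mean over the 4 arrays (horizontal axis), with Sall1 knockout arrays as circles and control arrays as squares. The striated members, the smooth muscle members and both further muscle lists are lowest in control replicate 2, whereas the liver and gut genes are lowest in control replicate 1.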

How the data were processed

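The deposited scanner files were written by Agilent Feature Extraction 10.7.3.1, per the file headers, for array design 028005 on build mm9. The processed signal they give is a linear intensity, corrected for background and for spatial trends by that software, per the file headers, and not scaled between arrays. In the deposited value table the intensity is the same: all single-spot rows (100%) equalled the scanner signal within 1%, its column medians were 47.76 and 45.79 for the knockout and 52.29 and 47.07 for the control arrays, and it is linear and uncentred.

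Intensities as deposited were divided by each array's 75th percentile over unmarked, non-control spots (534 and 521 in the knockout, 597 and 547.5 in the control arrays) and put on the log2 scale. Scaled signals are multiplied by the mean percentile, 549.9. Spots marked as outliers (147 to 174 an array) were dropped, and spots of 1 probe averaged. Probes that cleared background on both arrays of either group were kept (34258), with the brightest probe for each gene, leaving 15088 named genes and 9993 unnamed sequences. Accessions were matched without versions to RefSeq symbols of GRCm38.p6: 26413 probes matched and 29268 did not. Where a gene was above background on no array of 1 group, its fold is a lower bound: the brighter group's mean over the dimmer group's mean, with signals in the dimmer group set to no less than the lowest signal that cleared background on that array.

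Groups were taken from the genotype label, and replicates numbered in sample order. The test was limma 3.58.1 with lmFit and eBayes, run in R 4.3.3. It was two-sided, with Benjamini-Hochberg over all 25081 features and 2 residual and 1.79 prior degrees of freedom. The fit was also run on simulated data, with variances drawn from the trended robust prior and not from the default prior used here. An exact permutation test of 2 against 2 arrays cannot reach 0.05 and was not used. Named were all 40 members, Sall1, and up to 4 genes of each other list by unadjusted p, and heart genes at background were named too. The 40 members and all lists were chosen with earlier results of these data known. Alternatives were normexp (offset 50, on median spot signal and median background, since mean signal was not used here), quantile or median scaling, other background filters, marked spots kept, probe means, the deposited value table, a trended robust prior, array weights, other thresholds, and each array left out.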

Additional observations from a re-analysis of the deposited data

How the results depend on the processing

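The members' directions held under most alternatives, while the sizes hung on control replicate 2. The count of features called, 0 by limma at an adjusted p under 0.05 (with an unadjusted p under 0.05 for 1699 that were higher and 1488 that were lower), was 41 with normexp (19 higher and 22 lower), 8 with median centring (4 higher and 4 lower), 301 with the trended robust prior (137 higher and 164 lower) and 21 at an adjusted p under 0.1. The count of members called was 2 with the trended robust prior, Des and Tpm2, and 0 under the other 14 alternatives. The count of members 1.5-fold apart without overlap, 20, was 13 at a 2-fold limit, and with each array left out it ran from 10 (without control replicate 2) to 31 (without control replicate 1). With 1 array left in a group, that array is assumed to vary like the other group. The median of the striated members ran from 0.37 to 1.64 with each array left out and that of the smooth muscle members from 0.13 to 0.28. Of the single members, 3 changed sign: Myf6 was 0.091 with normexp, Cnn1 ran from -0.0038 to 0.18 with each array left out, and Chrng from -0.020 to 1.30. The cause of these changes was not tested. No paired analysis was possible because the groups share no replicate number in the labels. Signals near background (Myf6, Mylpf, Chrng, Cnn1 and control replicate 2 of Casq2) are the least certain.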

Other observations

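The gap between the control arrays was also read over all features, and the genes below were chosen after their values were seen. Of 25081 features, 157 (0.626%) lay at least 2-fold lower in control replicate 2 than in control replicate 1. These include 18 of the 37 tested members, which make 11.5% of the 157 features, and 10 of the 41 further skeletal muscle genes. Casq2 and Chrng, kept only through the knockout arrays, are among the 18. Of the 30 striated members above background on all 4 arrays, 16 are among the 157. In the other direction, 230 features lay at least 2-fold lower in control replicate 1, and 0 of them were members. Ttn, Casq2, Chrna1, Myh3, Actn2, Cacna1s and Neb were among the 40 features with the widest gap.

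Genes outside the muscle lists stood beside them in that ranking. Mstn, myostatin, which restrains muscle growth, gave 61.3 and 38.3 in the knockout arrays and 46.0 and 4.26 in the control arrays, of which control replicate 2 was not well above background, so its place in the ranking is uncertain. Cxcl13, a chemokine that draws B cells, gave 1577 and 1219 in the knockout arrays and 1455 and 235 in the control arrays. Ltb, lymphotoxin beta, gave 353 and 283 in the knockout arrays and 329 and 63.1 in the control arrays. Ccl21a, a chemokine of lymphatic vessels and lymph nodes, gave 3068 and 4460.2 in the knockout arrays and 3436 and 659 in the control arrays. In these 4 genes control replicate 2 was the lowest array, and control replicate 1 lay between the knockout arrays. Slfn2 and Klk1b5, near the top of the same ranking, were instead high in control replicate 1 alone. Slfn2 gave 37.7 and 25.7 in the knockout arrays and 288 and 25.1 in the control arrays, and Klk1b5 gave 28.2 and 40.3 in the knockout arrays and 163 and 17.6 in the control arrays. What these genes share with the muscle genes was not tested.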
